A study of Drosophila melanogaster with 8 samples.

Results

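Small nucleolar RNA (snoRNA) genes were examined for overlap with chromatin-bound phosphorylated p38 (P-p38) in Drosophila S2 cells. Members were all genes whose symbol starts with snoRNA: on the 6 arms of the dm6 assembly (X, 4, 2L, 2R, 3L, 3R), which gave 257 of 17684 annotated genes, and the 92 genes that host 246 of them. p38 is a MAP kinase that responds to stress and is active when phosphorylated; DNA bound to this form in wild-type S2 cells, an embryonic line with haemocyte features, was immunoprecipitated and sequenced. The 2 H2O2 libraries came from cells exposed to 10 mM H2O2 for 30 min at 25 °C, and the 2 control libraries from cells that received medium alone. The data are 1 list of peaks per library. The 4 inputs were not analysed here. Nothing in the labels says that replicates were separate cultures, so a spread between replicates may be technical. Of 9 haemocyte marker genes, 4 and 6 lay under a peak in H2O2 replicates 1 and 2, against 6 and 8 in control replicates 1 and 2, but peaks do not measure expression. These markers are long, with a median of 16048 bp. Among protein-coding genes over 7500 bp that hold no snoRNA gene and encode no ribosomal protein, the shares were 28.3% and 30.7% in H2O2 and 28.7% and 21.4% in control. The marker shares stood above these in every library (44.4% and 66.7% in H2O2, 66.7% and 88.9% in control). They rest on 9 genes and on no measure of expression, so the counts are not evidence of cell identity.

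snoRNAs guide the chemical modification of ribosomal RNA in the nucleolus. Box C/D snoRNAs, named Me in the fly after the site they serve, direct 2'-O-methylation, and box H/ACA snoRNAs, named Psi, direct the change of uridine to pseudouridine. Most fly snoRNAs are cut out of introns of a host transcript, which may be the mRNA of a ribosomal protein or another protein, or a non-coding transcript of a U snoRNA host gene (Uhg).

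snoRNA genes lay under P-p38 peaks in the H2O2 lists far less often than in the control lists. A peak covered at least 1 bp of 4 and 15 of the 257 genes in H2O2 replicates 1 and 2 (1.56% and 5.84%), against 103 and 138 genes in control replicates 1 and 2 (40.1% and 53.7%). Both H2O2 libraries stood below both control libraries. Among the other 17427 genes of the arms the same shares were 8.88% and 9.74% in the H2O2 libraries and 11.3% and 10.7% in the control libraries. This background is not matched for length. The median was 134 bp for snoRNA genes and 1745 bp for the other genes, and a longer gene meets the 1 bp rule more easily. The snoRNA share averaged 3.70% ± 3.03 in H2O2 and 46.9% ± 9.63 in control (SD, n = 2 libraries each), a difference of -43.2 percentage points. The exact two-sided permutation test over libraries gave p = 0.333, the smallest that 2 against 2 libraries allow, so no comparison of libraries here can pass 0.05. The H2O2 lists held 6434 and 4019 peaks over 2.47 and 1.41 Mb, against 4314 and 2988 control peaks over 2.52 and 1.70 Mb. Within each treatment the shorter list had the higher snoRNA share. With all lists cut to 2988 peaks the difference was -40.9 points. The cause of the difference was not tested.

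Requiring both libraries of a treatment, 3 snoRNA genes were called in H2O2 (1.17%, background 4.98% of other genes) and 95 in control (37.0%, background 6.03%). Of the 257 genes, 81 were called in both control lists but no H2O2 list, where 3.17% of other genes were. The opposite pattern, both H2O2 lists but no control list, was held by 0 snoRNA genes (background 2.03%), and 3 were called in all 4 (background 1.6%). A further 64 genes had other combinations, and 109 lay under no peak. Control replicate 2, the shortest list, called 43 snoRNA genes that replicate 1 did not, and replicate 1 called 8 that replicate 2 did not. Of the 16 genes called in any H2O2 library, 14 were also called in a control library. The other two, 1 inside the actin gene Act57B and snoRNA:Me18S-A1374 inside the dystrophin gene Dys, were called in H2O2 replicate 2 alone.

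**Figure D1:**
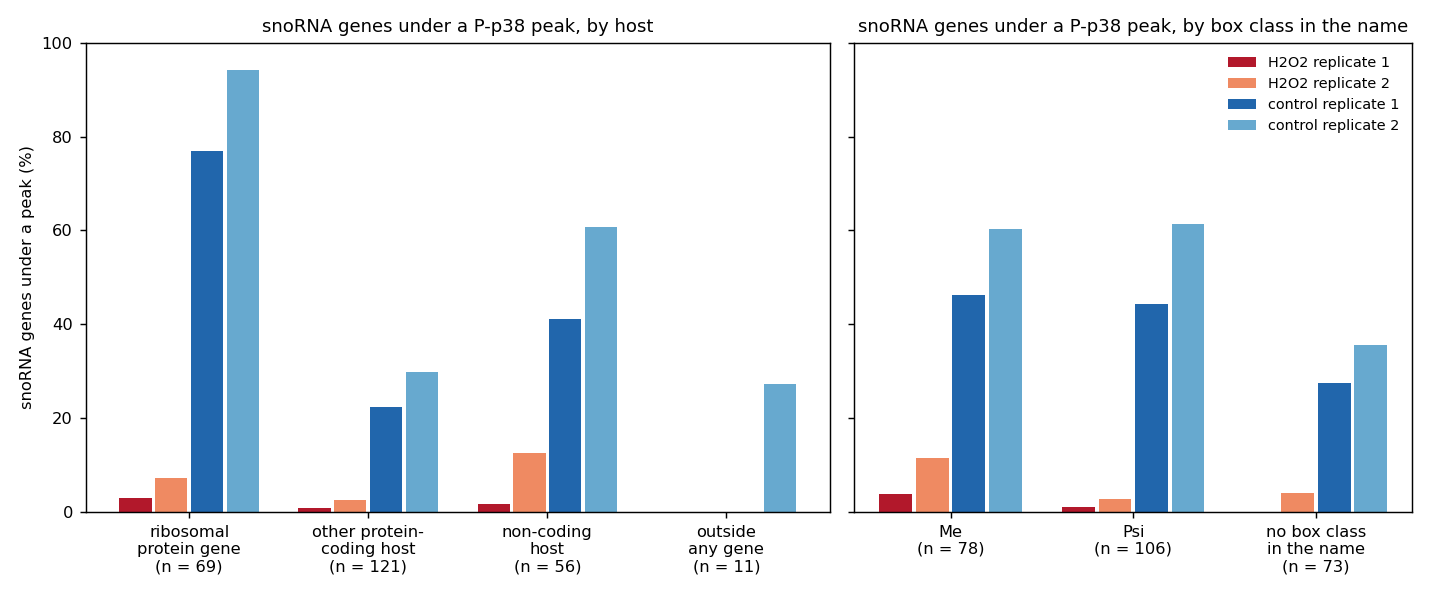
Share of snoRNA genes (%, linear axis from 0) overlapped by a peak in each library, by host on the left and by the box class in the gene name on the right; each bar is 1 library and n is the number of snoRNA genes. Inside ribosomal protein genes the H2O2 bars stand at 2.90% and 7.25% and the control bars at 76.8% and 94.2%, and in every class with a bar for both control replicates both H2O2 bars are lower.

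In control, snoRNA genes were called most often inside ribosomal protein genes. Inside ribosomal protein genes, which code for the proteins that assemble with rRNA, 2 and 5 of 69 snoRNA genes were called in H2O2 replicates 1 and 2, against 53 and 65 in control replicates 1 and 2. Inside other protein-coding hosts 1 and 3 of 121 were called in H2O2, against 27 and 36 in control (22.3% and 29.8%). Non-coding hosts held 56 snoRNA genes, of which 1 and 7 were called in H2O2 and 23 and 34 in control (41.1% and 60.7%). Outside any gene lay 11 snoRNA genes, with 0 and 0 called in H2O2 and 0 and 3 in control. The H2O2 and control libraries did not overlap in any of the 3 hosted classes (exact permutation p = 0.333 for each), while the genes outside any host had a control share of 0% in replicate 1 (exact permutation p = 1). Nor did they overlap over all genes other than snoRNA genes (exact permutation p = 0.333). There the shares were 8.88% and 9.74% in H2O2 and 11.3% and 10.7% in control, so non-overlap alone does not mark out these classes. With peaks over 1000 bp left out, ribosomal protein hosts had 0 and 3 of 69 called in H2O2 and 22 and 7 in control (31.9% and 10.1%), a difference of -18.8 points in place of -80.4. Non-coding hosts then had 1 and 6 of 56 called in H2O2 and 5 and 11 in control, so that the treatments overlapped (difference -8.04 points in place of -43.75, exact permutation p = 0.667).

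Me and Psi genes had shares near each other in control, while in H2O2 the few calls were more often of Me genes. Of 78 Me genes, 3 and 9 were called in H2O2 (3.85% and 11.5%) and 36 and 47 in control (46.2% and 60.3%). Among 106 Psi genes 1 and 3 were called in H2O2 (0.943% and 2.83%) and 47 and 65 in control (44.3% and 61.3%). The 73 genes with no box class in their name, which include the U3 genes and genes named after a host, had 0 and 3 calls in H2O2 and 20 and 26 in control (27.4% and 35.6%). Inside ribosomal protein genes, 1 and 2 of 16 Me genes were called in H2O2 against 15 and 16 in control, and 1 and 2 of 40 Psi genes in H2O2 against 30 and 37 in control. In other protein-coding hosts the order of the classes was the reverse for control, with 4 and 4 of 23 Me genes (17.4% in each library) and 16 and 26 of 60 Psi genes (26.7% and 43.3%). No test between the classes was made, since genes of 1 host share their peaks.

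By the rRNA in the name, 28S guides were called more often than 18S guides in control, for both boxes. Psi28S genes were called in 1 and 3 of 60 cases in H2O2 and in 32 and 45 in control, and Psi18S genes in 0 and 0 of 46 in H2O2 and 15 and 20 in control. Of the 46 Psi18S genes 17 lie in Arpc2, which had no peak in any list, and without them the count in both control libraries was 15 of 29 (51.7%), beside 31 of 60 Psi28S genes (51.7%). Me28S genes were called in 2 and 3 of 54 cases in H2O2 and 27 and 35 in control, and Me18S genes in 1 and 6 of 21 in H2O2 and 8 and 11 in control. Names with a copy letter mark 119 genes in 37 families. Their sequences were not compared, and copies that are near-identical may share reads that cannot be separated. These were called in 0 and 1 cases in H2O2 and 54 and 68 in control (45.4% and 57.1%), and the 138 genes with 1 copy by name in 4 and 14 cases in H2O2 and 49 and 70 in control (35.5% and 50.7%).

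In control, other small RNA genes were under a peak far less often than snoRNA genes. Of 290 tRNA genes, 0 and 0 were called in H2O2 and 1 and 0 in control. For 260 miRNA genes the counts were 7 and 10 in H2O2 (2.69% and 3.85%) and 16 and 15 in control (6.15% and 5.77%). Among non-coding genes other than snoRNA genes the shares were 4.31% and 3.88% in H2O2 and 4.54% and 4.45% in control. The miRNA shares thus stood below or near that background in H2O2 and above it in control. For 32 spliceosomal snRNA genes they were 1 and 1 in H2O2 and 1 and 2 in control. The 17 scaRNA genes, which guide the modification of snRNAs in Cajal bodies, had 0 and 0 calls in H2O2 and 1 and 1 in control. Their positions relative to active host genes were not matched to those of snoRNA genes.

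Ribosomal protein hosts were covered over most of their body in control. Of 27 such hosts, 2 and 4 were under a peak in H2O2 replicates 1 and 2, against 24 and 27 in control replicates 1 and 2. The H2O2 shares, 7.41% and 14.8%, lie near those of all protein-coding genes (10% and 11.2% in H2O2), and the control shares, 88.9% and 100%, above them (13% and 12.2% in control). Their median covered share of the gene body was 0% in both H2O2 libraries, against 82.8% and 98.4% in control replicates 1 and 2. At least 50% of the body was covered in both H2O2 libraries for 1 of these hosts and in both control libraries for 22. The 57 ribosomal protein genes that contain no snoRNA gene gave nearly the same picture, with 1 and 2 under a peak in H2O2 and 46 and 51 in control (80.7% and 89.5%), beside 2 and 4 in H2O2 and 26 and 29 in control for the 29 that contain a snoRNA gene (89.7% and 100%).

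Peaks did not favour the snoRNA part of a ribosomal protein host. Of the snoRNA bases in these hosts 3.42% and 5.76% were covered in H2O2 and 66.8% and 88.1% in control, while of their remaining bases 5.34% and 8.73% were covered in H2O2 and 69.1% and 89.1% in control. In non-coding hosts the snoRNA bases were covered over 1.79% and 15.4% in H2O2 and 41.3% and 57.8% in control, and the rest of the host over 1.43% and 10.2% in H2O2 and 40.5% and 55.6% in control. Other protein-coding hosts differed, with 0.447% and 1.24% of snoRNA bases in H2O2 and 16.4% and 24.7% in control, against 0.874% and 1.12% of other bases in H2O2 and 4.41% and 4.51% in control. These hosts reach 136204 bp in length, so long hosts weigh most in the share of other bases. Of the distinct peaks over snoRNA genes, 0 of 3 and 2 of 9 had their summit inside a snoRNA gene in H2O2, against 13 of 56 and 4 of 61 in control.

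RpS5a and RpL3 show the range among ribosomal protein hosts. RpS5a (X 17143588 to 17148264), a small-subunit protein gene, holds 14 Psi genes, copies of 3 guides by name plus snoRNA:Psi28S-2876. None was called in either H2O2 library, and 10 and 14 were called in control replicates 1 and 2, where peaks covered 61.9% and 95.9% of the gene. RpL3 (3R 11221894 to 11225173), a large-subunit protein gene, was covered over 70.7% and 84.7% in H2O2 and over 100% in each control library, with 2 and 2 of the 3 snoRNA genes assigned to it called in H2O2 and 3 and 3 in control. The H2O2 lists had several separate peaks along RpL3, while 1 peak of 3587 bp in control replicate 1 and 1 of 3511 bp in control replicate 2 spanned it.

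**Figure D2:**
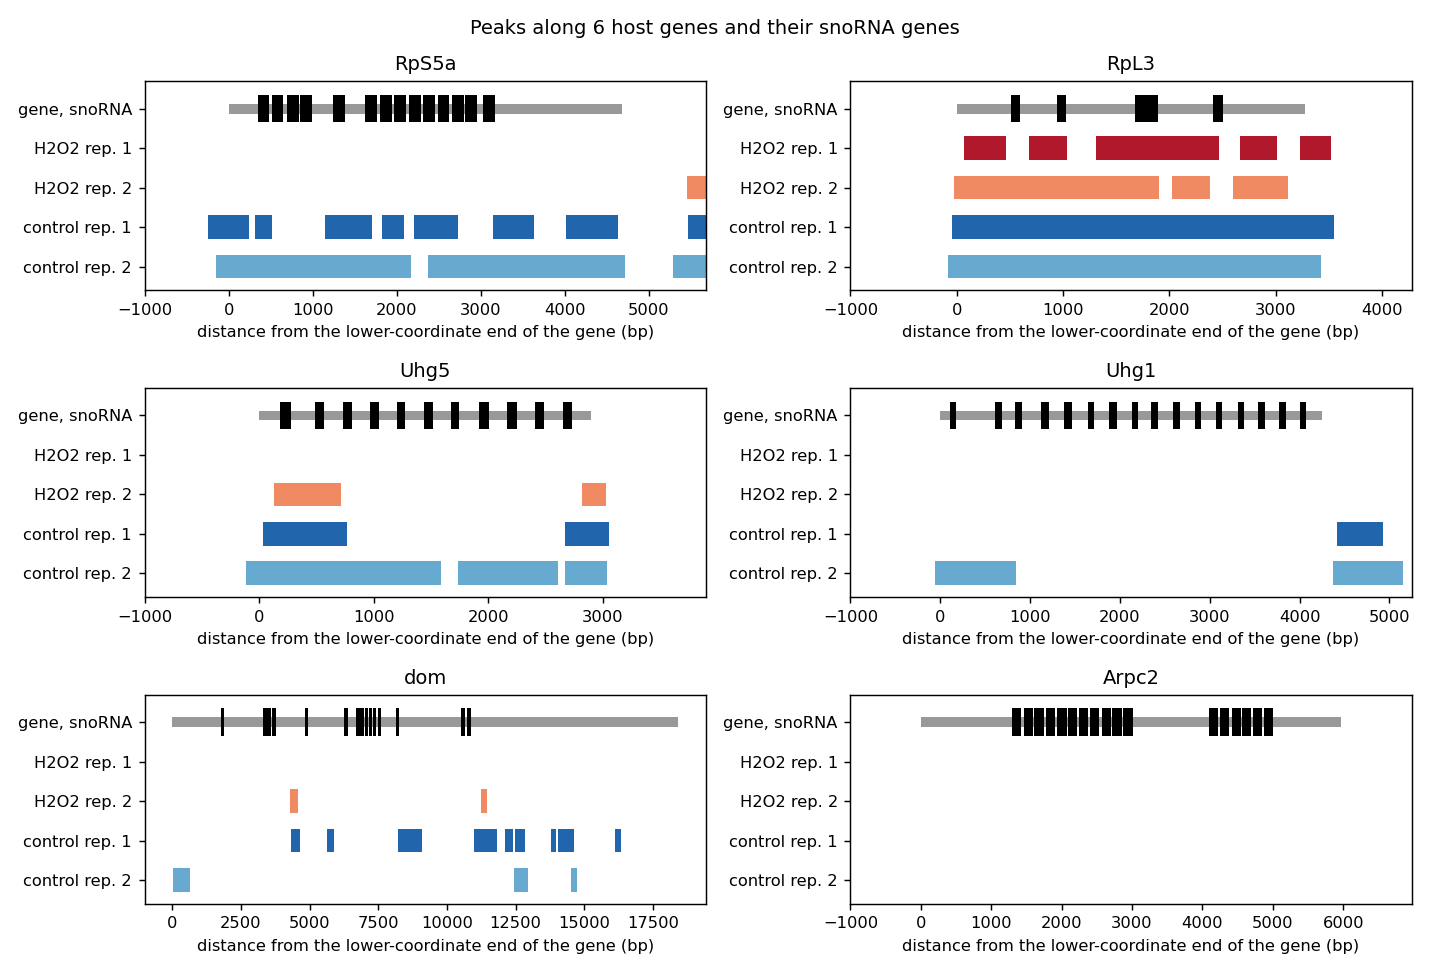
Peaks (coloured bars, 1 row per library) along 6 host genes (grey bar) with all snoRNA genes inside them (black blocks); the x axis is the distance in bp from the lower-coordinate end of each gene, whose strand is not given. Both control lists span RpL3 with 1 peak each, the snoRNA genes of dom lie almost all outside peaks, and Arpc2 has no peak within 1000 bp in any list.

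Among the other ribosomal protein hosts of 3 or more snoRNA genes, H2O2 libraries called at most 1 snoRNA gene per host, and control calls ranged from none to all of a host. RpS7 had 0 and 1 of its 7 Psi genes called in H2O2 and 7 and 6 in control. RpL28 had 0 and 0 of 5 in H2O2 and 4 and 5 in control, and RpS16 0 and 0 of 5 in H2O2 and 2 and 5 in control. RpS4 had 0 and 0 of 3 called in H2O2 and 3 and 3 in control. RpL17 had the fewest control calls, with 0 and 0 of 4 in H2O2 and 0 and 2 in control, although peaks covered 59.8% of it in control replicate 2. Only 3 snoRNA genes in ribosomal protein hosts lay under no control peak, snoRNA:Psi28S-3436a and snoRNA:Psi28S-1060 in RpL17 and snoRNA:CD-24 in RpS3A.

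Other protein-coding hosts of many snoRNA genes ranged in control from mostly covered, as kra, to uncovered, as Arpc2. kra (3R 5595364 to 5601136), which encodes a translation regulator related to eIF5, had 0 and 0 of its 8 Psi genes called in H2O2 and 8 and 8 in control, with 0% and 9.65% of the gene covered in H2O2 and 95.1% and 95.0% in control. Hrb98DE, an hnRNP RNA-binding protein gene, had 0 and 0 of 7 called in H2O2 and 3 and 7 in control. Sf3b3, a splicing factor subunit gene, had 0 and 0 of 4 called in H2O2 and 3 and 4 in control, and pAbp, the poly(A)-binding protein gene, 0 and 0 of 3 in H2O2 and 2 and 3 in control. CG10576 had 0 and 0 of 5 called in H2O2 and 0 and 3 in control.

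At the uncovered end, Arpc2 (2L 20417057 to 20423027), a subunit gene of the Arp2/3 actin-nucleating complex, holds the largest set, 17 Psi18S copies, and none was called in any library. The chromatin remodeller gene dom (2R 21323430 to 21341847) holds 15, of which 0 and 0 were called in H2O2 and 1 and 0 in control, although 2.88% of it was covered in H2O2 replicate 2 and 21.4% and 7.28% in control. The transcription factor gene lola (4 snoRNA genes) and the TNF-family ligand gene egr (3) had none called in any library, although lola itself was under a peak in all 4, over 0.752% and 1.68% of the gene in H2O2 and 12.7% and 9.42% in control, and egr was covered over 8.04% in control replicate 1. A snoRNA gene of a protein-coding host other than a ribosomal protein gene was called in both control libraries in 9 of 53 such hosts. Besides kra, Hrb98DE, Sf3b3 and pAbp these were the splicing factor gene SC35, Ctu1, Stt3A, Tudor-SN and the elongation factor gene eEF1alpha1. Hosts of the 22 snoRNA genes called in both control libraries in this class were 1595 to 7114 bp long, and hosts of those called in neither were 566 to 136204 bp long.

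**Figure D3:**
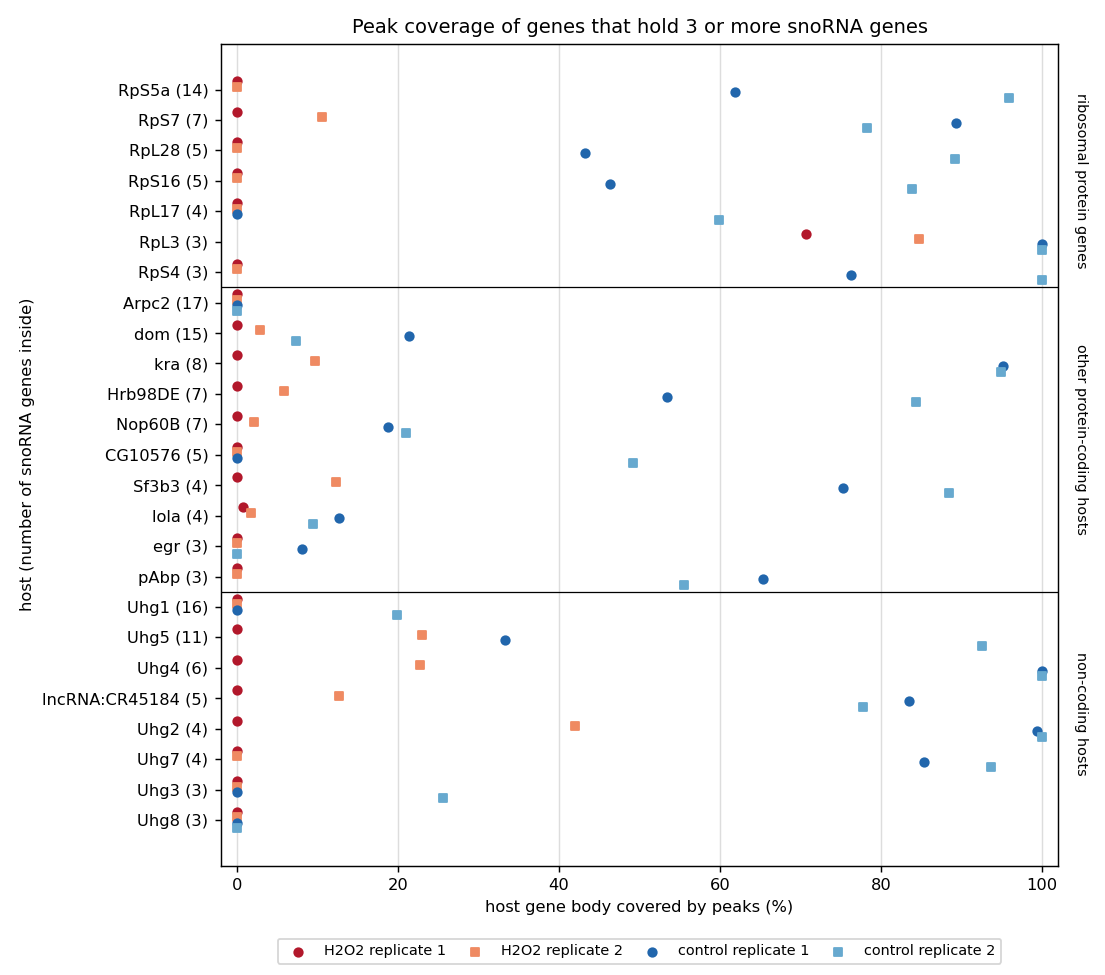
Share of the gene body covered by peaks (%, x axis) for the 25 genes that hold 3 or more snoRNA genes, with 1 point per library (circles replicate 1, squares replicate 2) and the number of snoRNA genes in parentheses. All H2O2 replicate 1 points lie at 0 except those of RpL3 and lola, H2O2 replicate 2 reaches 84.7% at RpL3 and 42.0% at Uhg2, and control points run from 0% at Arpc2 and Uhg8 to 100% at RpL3 and Uhg4.

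Hosts were under a control peak more often than other protein-coding genes of the same length class, and over 7500 bp this also held in H2O2. Within each class the hosts were longer. Their median lengths were 1954.5, 5213.5 and 27872 bp, against 1270, 3850.5 and 16800 bp for the other genes, so length is only partly matched. For hosts that do not encode ribosomal proteins, 0 of 10 genes of up to 2500 bp were under a peak in both H2O2 libraries and 3 in both control libraries (30.0%), against 1.85% in H2O2 and 2.78% in control of 7665 genes with no snoRNA gene. From there to 7500 bp it was 1 of 20 in H2O2 and 10 of 20 in control (50%), against 4.82% in H2O2 and 7.34% in control of 3692 genes. Over 7500 bp it was 8 of 23 in H2O2 (34.8%) and 7 of 23 in control (30.4%), against 19.7% in H2O2 and 15.9% in control of 2420 genes. No test was made of these shares, and expression of the genes in S2 cells is not in the lists. The 80 protein-coding hosts, ribosomal protein genes included, were called in both H2O2 libraries in 11 cases (background 5.82% of protein-coding genes) and in both control libraries in 44 (background 6.92%). H2O2 alone called 3 of them (background 2.34%), control alone 29 (background 3.62%) and all 4 libraries 6 (background 1.9%). The 3 hosts of H2O2 alone, CG30460, stet and Dys, had no snoRNA gene called in both H2O2 libraries.

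Non-coding hosts ranged from fully covered to bare in control. Of 12 such genes, 1 and 5 were under a peak in H2O2 and 8 and 10 in control, where the backgrounds of non-coding genes other than snoRNA genes were 4.31% and 3.88% in H2O2 and 4.54% and 4.45% in control. Both H2O2 libraries called 1 of the 12 (background 1.65%) and both control libraries 8 (background 2.45%). Called in H2O2 alone were 0 (background 0.77%), in control alone 3 (background 1.4%) and in all 4 libraries 1 (background 0.428%). Some of these calls share peaks with ribosomal protein genes. Each of the 3 control-only hosts overlaps such a gene. Uhg7 overlaps RpL23A, lncRNA:CR42491 lies inside RpL22, and the snoRNA gene of asRNA:CR45874 also lies inside a ribosomal protein gene. The host called in all 4, asRNA:CR31144, lies inside RpL3. With protein-coding hosts taken first, 44 snoRNA genes stayed in the class, with 0 and 6 called in H2O2 and 14 and 25 in control (31.8% and 56.8%). Uhg4 (2R 9095273 to 9097312) had 0 and 2 of its 6 snoRNA genes called in H2O2 and 6 and 6 in control, with 0% and 22.7% of the gene covered in H2O2 and 100% and 100% in control. Uhg2 had 0 and 2 of 4 called in H2O2 and 4 and 4 in control, and Uhg7, which overlaps RpL23A, 0 and 0 of 4 in H2O2 and 4 and 4 in control. Uhg5 (2R 14621601 to 14624498), with 10 Me genes among its 11, had 0 and 2 called in H2O2 and 4 and 11 in control. Control replicate 1 had peaks at both ends of Uhg5 only, and the H2O2 replicate 2 peaks overlapped these.

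The remaining Uhg genes had few calls. Uhg1 (2R 17699097 to 17703344), with 16 snoRNA genes the largest non-coding host, had 0 and 0 called in H2O2 and 0 and 3 in control, and its control replicate 2 peak covered 19.9% of the gene at its lower-coordinate end. Uhg3 had 0 and 0 of 3 called in H2O2 and 0 and 1 in control, and Uhg8 had none of 3 in any library. The non-coding gene lncRNA:CR45184, which lies inside Sf3b3, had 0 and 0 of 5 called in H2O2 and 4 and 2 in control.

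The 3 snoRNA genes called in every library lie in eEF1alpha1 and RpL3. snoRNA:Me28S-A1322 (2R 11893123 to 11893195) lies in eEF1alpha1, the gene of translation elongation factor 1-alpha. The authors' fold enrichment of the peak over it was 1.32 and 2.60 in H2O2 replicates 1 and 2, at percentiles 0.824 and 98.7 of their lists, and 3.38 and 4.0 in control replicates 1 and 2, at percentiles 99.3 and 98.3. H2O2 replicate 1 had 3 peaks in eEF1alpha1, over 56.4% of the gene, of which the strongest stood at percentile 84.6 and the weak one of 206 bp lay over the snoRNA gene. The other lists had 1 wide peak each. snoRNA:Psi28S-291 (3R 11223571 to 11223790) in RpL3 had folds of 1.94 and 1.75 in H2O2, at percentiles 91.6 and 75.8, and 3.31 and 4.99 in control, at percentiles 99.2 and 99.6. snoRNA:Me18S-A425 (3R 11222841 to 11222924), inside both RpL3 and the antisense gene asRNA:CR31144, shares the control peaks and the H2O2 replicate 2 peak of its neighbour and stood at percentile 65.8 in H2O2 replicate 1. The background behind each fold is not given here, so folds are read by percentile within a list.

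Strong snoRNA genes of the control lists alone were in RpL4, RpL15, RpL22, Uhg4 and Ctu1. snoRNA:Or-aca3 in RpL4 lay under control peaks of fold 2.62 and 3.80 at percentiles 97.8 and 98.0. snoRNA:Me18S-C419 and snoRNA:Me18S-G1358c share the peaks of RpL15, at percentiles 97.4 and 98.4 in control. snoRNA:Psi28S-2179 in RpL22 stood at percentiles 95.9 and 97.7 in control. snoRNA:Me28S-A982a, snoRNA:Me28S-A982b, snoRNA:Me28S-G3255a and snoRNA:Me28S-G3255b in Uhg4, and snoRNA:Or-CD2 in Ctu1, which overlaps Uhg4, share 1 peak per control list, of 2776 and 2781 bp, at percentiles 96.6 and 95.7. These 9 were chosen for lying under no peak in an H2O2 list, so that absence is not a result, and they stand on 4 peaks in each control list. Elsewhere in their hosts H2O2 replicate 2 did have peaks, over 13.0% of RpL4, 22.7% of Uhg4 and 22.6% of Ctu1.

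Peaks over snoRNA genes were few in H2O2, and in control they were wide and ranked high. The 257 genes were covered by 3 and 9 distinct peaks in H2O2 replicates 1 and 2 (0.0466% and 0.224% of each list), against 56 and 61 in control replicates 1 and 2 (1.30% and 2.04%). Median widths were 360 and 504 bp in H2O2 and 1092.5 and 1568 bp in control, where the median of the whole list was 296 and 270 bp in H2O2 and 324 and 354.5 bp in control. Wide peaks were also more common in the control lists as a whole. Peaks over 1000 bp made up 3.05% and 2.61% of the H2O2 lists and 11.2% and 12.3% of the control lists. Among peaks over snoRNA genes they made up 33.3% and 22.2% in H2O2 and 51.8% and 67.2% in control. Their median percentile of fold was 65.8 and 75.8 in H2O2 and 84.7 and 93.0 in control. A single peak covered up to 2 and 3 snoRNA genes in H2O2 and up to 8 and 9 in control. Among the 100 peaks with the highest fold in each list, 0 and 2 lay over a snoRNA gene in H2O2 and 5 and 16 in control. With peaks over 1000 bp left out, 2 and 11 snoRNA genes were called in H2O2 and 39 and 31 in control, and 5 genes were called in control alone.

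**Figure D4:**
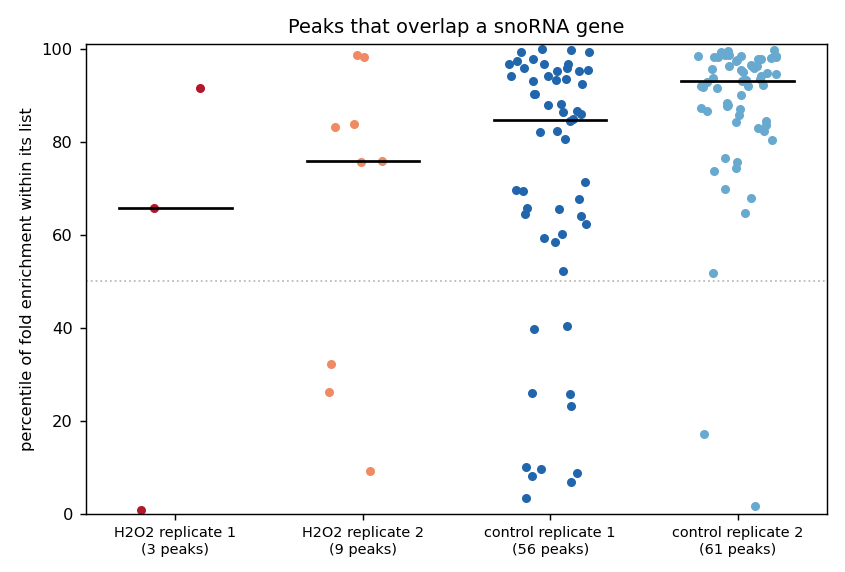
Percentile of the authors' fold enrichment within its own list (y axis, linear) for each distinct peak that overlaps a snoRNA gene, by library; horizontal lines are medians and the dotted line marks the middle of a list. The medians stand at 65.8 and 75.8 for the 3 and 9 H2O2 peaks and at 84.7 and 93.0 for the 56 and 61 control peaks.

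snoRNA genes outside any annotated gene had no call in both libraries of a treatment. They include the U3 genes, whose RNA guides the cleavage of the rRNA precursor. snoRNA:U3:9B (X 10348125 to 10348337) lay under a peak at percentile 91.5 of control replicate 2 and under none in the other lists, and snoRNA:U3:54Aa and snoRNA:U3:54Ab lay under no peak in any. A pair of unclassed neighbours on 2R shared 1 peak at percentile 86.5 of control replicate 2.

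Genes of the snoRNA-protein particles and of nucleolar transcription were listed beside the snoRNA genes. From this list of 22 genes, 1 and 3 were under a peak in H2O2 (4.55% and 13.6%, near the protein-coding backgrounds of 10% and 11.2%). In control 8 and 12 were (36.4% and 54.5%, backgrounds 13% and 12.2%), with no test made. Both H2O2 lists alone called 0 (background 2.34% of protein-coding genes) and both control lists alone 5 (background 3.62%). For 22 genes, 0 lies near its background and is not read as a result. Of the 4 box C/D core protein genes, 0 and 0 were called in H2O2 and 3 and 4 in control. Nop56 was covered over 0% and 0% in H2O2 and 32.6% and 73.2% in control, nop5 over 0% and 0% in H2O2 and 27.5% and 80.5% in control, and hoip, the gene of the core protein that binds the box C/D RNA, over 0% and 0% in H2O2 and 43.8% and 100% in control. Fib, the gene of the methyltransferase fibrillarin and itself a snoRNA host, was covered in control replicate 2 alone (87.9%).

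For the 4 box H/ACA core genes the counts were 0 and 1 in H2O2 and 1 and 3 in control. Nop60B, the gene of the pseudouridine synthase and itself host of 7 snoRNA genes, was covered over 0% and 2.06% in H2O2 and 18.7% and 21.0% in control, with 0 and 0 of its snoRNA genes called in H2O2 and 2 and 1 in control. NHP2 and Nop10 were covered in control replicate 2 alone (55.5% and 100%), and Gar1 in no library. The assembly genes rept, pont and spag had no peak in any list, and the fourth assembly gene, Pih1D1, was covered over 0% and 5.46% in H2O2 and 0% and 2.71% in control. Of the remaining genes called in both control libraries, Nopp140 and the polymerase I factor gene Tif-IA had no H2O2 peak, while Nop17l had a peak in all 4 libraries, over 5.62% and 4.55% of the gene in H2O2 and 5.62% and 32.7% in control.

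The control share of snoRNA genes ranged widely over the arms. Shares of all genes on each arm were not computed, and host classes were not matched between arms. The range is therefore not shown to be particular to snoRNA genes. On 3R, 3 and 5 of 44 genes were called in H2O2 and 30 and 34 in control (68.2% and 77.3%), and on X 0 and 2 of 30 in H2O2 and 14 and 24 in control (46.7% and 80.0%). On 3L it was 0 and 0 of 49 in H2O2 and 25 and 30 in control (51.0% and 61.2%). On 2L, which holds Arpc2, it was 0 and 2 of 40 in H2O2 and 11 and 13 in control (27.5% and 32.5%), and on 2R, which holds Uhg1 and dom, 1 and 6 of 93 in H2O2 and 23 and 37 in control (24.7% and 39.8%). The gene on arm 4 had no peak.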

How the data were processed

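Chromatin immunoprecipitated with an antibody to P-p38 was sequenced in 4 libraries, 2 per treatment. The notes name Picard, MACS2 and build dm6, per the submitters' processing notes; versions, options, handling of multiply mapped reads and MACS2's background are not given in the sources. Each deposited list gives an interval, a score, a fold enrichment (a linear ratio, as the authors made it), a p-value and a q-value per peak, and a summit. Both deposited values of significance, p-value and q-value, are −log10 values; no list holds a −log10 p below 2, and the deposited score is a rounded multiple of it. Read depth is unknown, so no depth-based interval is given.

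Gene positions came from the RefSeq table of Release 6, which has no strand and no exons. A gene was called with at least 1 bp under a peak. The host was the smallest annotated gene, other than a small RNA gene, that contains the snoRNA gene. Ribosomal protein genes were RpL, RpS and RpLP symbols without a dash, and sta, 86 in all. Percentiles of fold were ranked within each list. Group shares were tested by exact permutation of libraries (two-sided, 6 arrangements). Overlap calls were tested on simulated peaks. Named were hosts of 3 or more snoRNA genes, snoRNA genes called in both H2O2 libraries, the 10 highest control-only ones by their lower control percentile (1 is not reported here), and genes outside any host called in both libraries of a treatment, of which there were 0. Other genes named, the length classes, the top 100 peaks, arms, copies and scaRNA genes were chosen after values were seen. Members and lists were chosen with earlier results of these data known. Of the 22 listed particle genes 22 were matched, 5 of them through synonyms. Sequences were not used here, and a planned motif search in host promoters was not run. Python 3.11.15, pandas 2.3.3, numpy 2.4.6 and matplotlib 3.10.9 were used.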

Additional observations from a re-analysis of the deposited data

How the results depend on the processing

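Alternatives were a peak that contains the whole snoRNA gene (or 50% of the host), a summit within 500 bp, a q-value limit of 1e-05, equal list lengths (2988 peaks), peaks of up to 1000 bp, each library left out, 1 unit per host locus, protein-coding hosts taken first, and a replicate block. In 90 of 91 entries for shares the H2O2 mean stayed below the control mean. Some entries could not differ from the main setting. The replicate block changes the test and not the share, and taking protein-coding hosts first cannot move genes that lie outside any gene. For all snoRNA genes the difference ran from -50.0 to -11.1 points, smallest with peaks of up to 1000 bp. Outside any gene the difference was 0 without control replicate 2 and -27.3 points without control replicate 1. The count of snoRNA genes called in both control libraries and neither H2O2 library was 81, and 53 when the peak had to contain the gene, 30 by summits, 51 by q, 5 with peaks of up to 1000 bp, 31 host loci, and 82 to 124 with 1 library left out, the highest without control replicate 1. snoRNA genes of H2O2 alone were 0, but 2 by summits and 0 to 2 with 1 library left out. Those called in all 4 were 3, then 1 by summits, 0 by q, 0 with peaks of up to 1000 bp and 3 to 13 with 1 library left out, the highest without H2O2 replicate 1. Control-only hosts were 32, and 10 with peaks of up to 1000 bp. H2O2-only hosts were 3, then 0 at 50% coverage, 0 by q and 5 with peaks of up to 1000 bp. Hosts called in all 4 were 7, then 3 at 50% coverage, 1 by q, 4 with equal lists, 3 with peaks of up to 1000 bp and 8 to 19 with 1 library left out, the highest without H2O2 replicate 1. The causes were not tested. With the replicate block the overall difference was -43.2 points (exact p = 0.5, the smallest that 4 arrangements give); calls of same-numbered libraries deviated together with a Pearson r of 0.0297 across genes, so the numbers are not shown to pair libraries. Depth limits what a missing peak shows: a gene outside a list may still carry P-p38 below the authors' limit.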
